A study of Mus musculus with 43 samples.

Results

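DNA methylation was examined at CCCGGG sites inside 10 windows of the mouse genome (build mm9) that hold the imprinted genes H19, Kcnq1ot1, Snrpn, Peg3, Peg10, Mest, Grb10, Plagl1, Igf2r and Gnas. The files list 63 CCCGGG sites in these windows, and 40 of them had at least 20 reads in at least 3 libraries of a group, out of 59174 such sites among the 173449 listed in all. These 40 sites are described here. Of the 40, 8 had a methylation level from 35 to 65%, which is called near 50% here, as averaged over the groups. That is 20.0% of the 40, beside 15.8% of all sites with as many reads (9349 of 59174).

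The libraries came from female Swiss Webster mice, an outbred stock, in a model of colitis-associated cancer. Every mouse received azoxymethane (AOM), a colon carcinogen, at 7 weeks of age and 4 cycles of 2% dextran sulfate sodium (DSS), which inflames the colon, from 9 weeks. From 11 weeks of age the chow held 0, 2 or 8 mg/kg folic acid (FA) for 16 weeks, so that all mice were killed at 27 weeks, and none of the groups was free of AOM or DSS. Cells were laser-microdissected from fixed, paraffin-embedded colon. The first cohort held non-dysplastic epithelium (ND) on 0 mg FA (0ND, 5 mice), 2 mg FA (2ND, 7 mice) and 8 mg FA (8ND, 6 mice). The second cohort held ND on 0 mg FA (0ND, 6 mice) and 8 mg FA (8ND, 6 mice), and polypoid dysplasia (P) on 0 mg FA (0P, 6 lesions of 6 mice) and 8 mg FA (8P, 7 lesions of 6 mice). The labels call ND non-neoplastic cells. The paper dissected some ND as epithelium alone and some with the lamina propria. The labels do not say which a library held, so ND may hold more than epithelium where it is called epithelium here. By the numbers in the labels, 8 mice gave epithelium to both cohorts and each polyp had epithelium of its own mouse in the second cohort.

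An imprinted gene is transcribed from the copy of 1 parent. Its control region carries methylation on the copy from 1 parent, set in the germ line, so that in ordinary body tissue about 50% of copies are methylated. The methylation is copied at each cell division, and it is known to be lost or gained at some imprinted genes in colon tumours. DREAM reads the CpG inside CCCGGG by cutting with SmaI, which methylation blocks, and then with XmaI, which cuts what is left, so that each read end shows the state of 1 copy. The assay does not tell the parental copies apart, and a level near 50% does not show that the methylation is on 1 parental copy. No annotation of mm9 was used, so whether a site lies in an exon, an intron or a control region proper is not given, and a site is named by its window and position.

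The sequence that limits what DREAM can read is shown in 3 promoters of these genes, taken from RefSeq (build GRCm38.p6, so these coordinates are not those of the mm9 sites and the promoters were not matched to them). Each line gives the 250 bases before the transcription start, 5′ to 3′ on the strand of the gene, in lower case, and the capitals mark CCCGGG, the 1 place where the assay can read. Gnas (plus strand, chr2:174329756-174330005), Grb10 (minus strand, chr11:12037421-12037670) and Igf2r (minus strand, chr17:12769707-12769956) are shown.
Gnas: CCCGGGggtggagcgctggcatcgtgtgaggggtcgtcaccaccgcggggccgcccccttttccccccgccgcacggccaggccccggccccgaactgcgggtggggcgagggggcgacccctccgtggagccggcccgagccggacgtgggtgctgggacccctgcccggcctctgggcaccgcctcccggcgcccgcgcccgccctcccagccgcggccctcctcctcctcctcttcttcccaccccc
Grb10: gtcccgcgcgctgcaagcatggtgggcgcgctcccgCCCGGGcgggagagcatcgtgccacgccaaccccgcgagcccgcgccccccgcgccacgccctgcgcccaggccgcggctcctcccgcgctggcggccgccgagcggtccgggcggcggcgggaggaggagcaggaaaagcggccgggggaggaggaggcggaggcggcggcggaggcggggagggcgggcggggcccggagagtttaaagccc
Igf2r: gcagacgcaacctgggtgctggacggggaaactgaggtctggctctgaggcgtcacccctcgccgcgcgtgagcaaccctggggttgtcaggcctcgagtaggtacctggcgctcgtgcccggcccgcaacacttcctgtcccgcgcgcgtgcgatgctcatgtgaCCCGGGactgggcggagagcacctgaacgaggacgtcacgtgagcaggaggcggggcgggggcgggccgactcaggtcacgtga
These stretches hold 29, 40 and 27 CpGs, of which 1 each lies in CCCGGG. The promoter table holds 17 promoters of 8 of the 10 genes, each of 300 bases (250 before the start and 50 after it). CCCGGG, which reads the same on both strands, is in 4 of the 17, beside 4436 of 32851 promoters of all genes (13.5%).

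The windows differed in what could be read. H19, a maternally expressed long noncoding RNA, had 20 sites in its window, 11 of them with enough reads and none near 50%. Gnas, which encodes the stimulatory G protein alpha subunit and lies in a locus with several imprinted transcripts, had 21 sites, 15 with enough reads and 6 near 50%. Grb10, an adaptor that dampens insulin and growth factor signalling, had 8 sites and 7 with enough reads, Plagl1, a zinc finger transcription factor, had 5 and 3, Igf2r, the receptor that clears insulin-like growth factor 2, had 2 and 2, and Kcnq1ot1, a long noncoding RNA that silences its neighbours, had 2 and 2. Plagl1 and Igf2r had 1 site each near 50%. The other 4 windows gave no site for comparison. Snrpn, a splicing factor gene, and Peg10, a gene derived from a retrotransposon, had no listed site, and the 2 sites of Peg3, a zinc finger gene, and the 3 of Mest, a hydrolase gene, reached at most 32 and 35 reads in any library. Only 18 of the 40 sites had enough reads in all 7 groups, 10 of them in Gnas, 4 in H19 and 4 in Grb10, and 8 sites had them in 1 group only. By level, 16 of the 40 were under 10%, 8 from 10 to 35%, 8 near 50% and 8 over 65%.

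**Figure D1:**
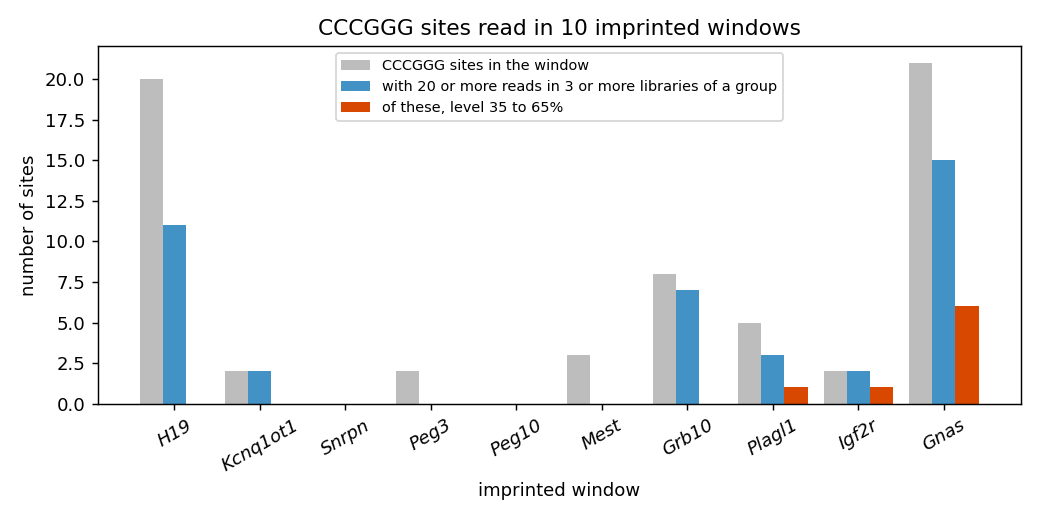
Number of CCCGGG sites (y axis) in each of the 10 imprinted windows (x axis), as listed (grey), with at least 20 reads in at least 3 libraries of a group (blue) and, of these, with a level from 35 to 65% (orange). Gnas holds 6 of the 8 orange sites, and Snrpn, Peg3, Peg10 and Mest hold no blue one.

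Reads on sites numbered 1488920 to 16923453 per library. The percentages are those that the authors adjusted with spiked standards unless raw ones are named, and the adjustment multiplied the odds of methylation by 0.992 to 4.04. In 2 libraries many levels lay at the ends of the scale. Of the genome's 1068 sites near 50% with enough reads in all 7 groups, 25.8% read 5% or less in the 0P lesion of mouse 1805 and 17.3% read 95% or more. The values in the second-cohort 8ND library of mouse 1830 were 17.0% and 12.6%. In the other 41 libraries they reached at most 4.58% and 6.09%. These 2 libraries were kept. The differences between groups at the sites near 50% are given with and without them, except under other processing.

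The sites near 50% in Gnas lay within 1973 bases on chromosome 2, apart from position 174110635, which had enough reads in 8P only and averaged 43.7% ± 10.6 (SD, n = 5) there. In the cluster, the 8 sites from position 174123795 to 174125768 ran between 38.4 and 70.3% as averaged over the groups. Position 174123975 averaged 57.1%, 174124966 averaged 39.1%, 174125155 averaged 48.9%, 174125553 averaged 40.6% and 174125759 averaged 38.4%. The remaining 3 were just above the band at 66.4% (174123795), 65.4% (174124930) and 70.3% (174125768). Neighbouring sites therefore differed in level although they lay within 9 to 955 bases of each other.

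Position 174125155 was the site nearest to 50%, and in 39 of 42 libraries it lay from 35 to 65%. In the first cohort it averaged 47.8% ± 3.21 (SD, n = 5, range 43.6 to 52.2%) in 0ND, 49.1% ± 6.43 (n = 7, 39.6 to 57.7%) in 2ND and 52.8% ± 7.52 (n = 6, 42.8 to 61.9%) in 8ND. In the second cohort it averaged 52.0% ± 18.8 (n = 6, 35.8 to 88.8%) in 0ND, 46.5% ± 9.65 (n = 5, 36.7 to 59.1%) in 8ND, 43.3% ± 23.1 (n = 6, 0 to 66.6%) in 0P and 50.7% ± 6.86 (n = 7, 44.1 to 62.8%) in 8P. All 7 groups overlapped. The 3 values outside the band were 0% in the 0P lesion of mouse 1805 (56 reads), 88.8% in the epithelium of the same mouse (35 reads) and 66.6% in the 0P lesion of mouse 1807 (286 reads).

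Position 174123975 averaged 56.7% ± 7.99 (SD, n = 5) in 0ND, 58.7% ± 6.41 (n = 7) in 2ND and 60.8% ± 11.8 (n = 6) in 8ND of the first cohort. In the second it averaged 54.0% ± 10.4 (n = 6) in 0ND, 56.3% ± 19.01 (n = 5) in 8ND, 51.8% ± 34.3 (n = 6, 0 to 90.4%) in 0P and 61.6% ± 3.67 (n = 7) in 8P. The 8P lesions, from 57.0 to 66.5%, spread least here.

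Positions 174125553 and 174125759 lay 206 bases apart and moved together. The first averaged 40.9% ± 6.85 (SD, n = 5) in 0ND, 37.1% ± 5.32 (n = 7) in 2ND and 39.4% ± 7.30 (n = 6) in 8ND of the first cohort. It averaged 40.5% ± 15.9 (n = 6) in 0ND, 35.5% ± 21.1 (n = 6) in 8ND, 42.9% ± 22.2 (n = 6) in 0P and 47.6% ± 8.54 (n = 7) in 8P of the second cohort. Across 42 libraries the median difference between the pair was 4.69 points (Pearson r = 0.881, a description, since the ends of 1 fragment share library and depth), and the median ratio of their reads was 0.808. Position 174125768, only 9 bases from the second of them, had a median of 0.170 times its reads and a level that differed by a median of 35.8 points, higher in 26 of 29 libraries. A like step lay between 174124930 and 174124966, 36 bases apart, where the second site had a median of 6.61 times the reads of the first and was higher in 2 of 26 libraries.

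**Figure D2:**
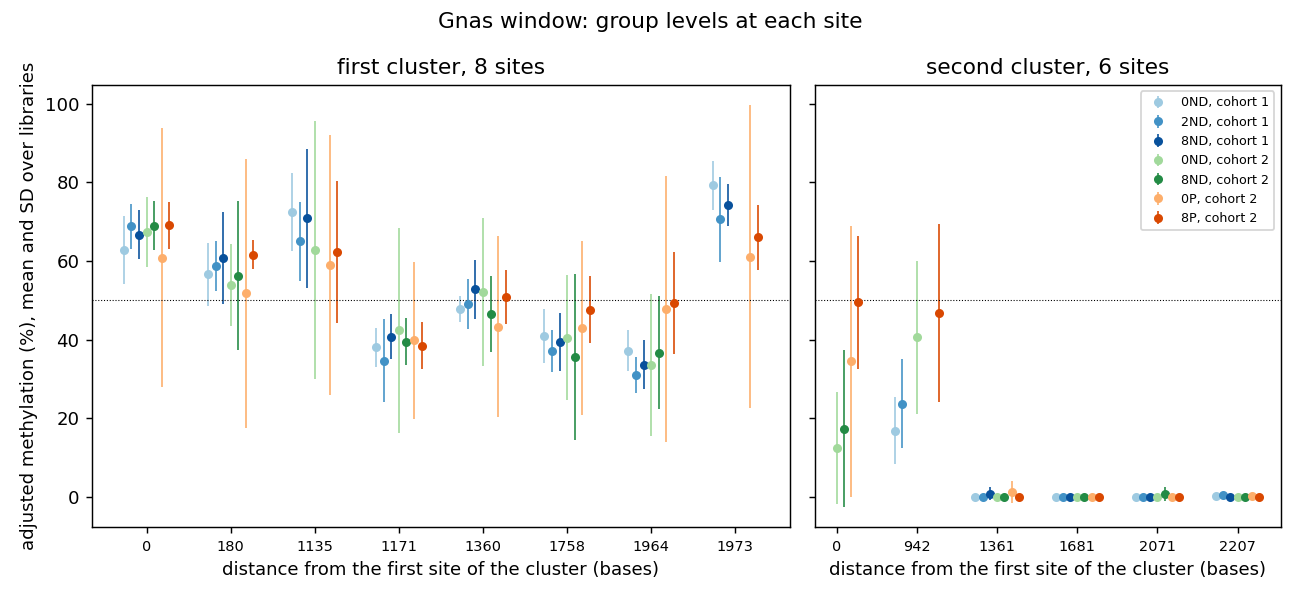
Adjusted methylation (y axis, %, mean and SD over libraries, groups with at least 3 libraries) at the Gnas sites of the 2 clusters, by distance in bases from the first site of each cluster (x axis, not to scale), with 1 colour per group. In the first cluster group means run from 31.0 to 79.3%, and in the second the last 4 sites are near 0 in every group.

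About 30 kb further on in the same window, levels were near 0. Positions 174155260, 174155580, 174155970 and 174156106 averaged under 0.3% over the groups, with 10 methylated of 13397 reads at 174155970 over 43 libraries (0.0746%, 95% Wilson interval 0.0406 to 0.137%) and 0 of 2951 at 174155580 (upper bound 0.130%), where 31 libraries had at least 20 reads and the others are pooled with them. The intervals cover counting error only. Just before them, 174153899 and 174154841 had intermediate levels, 28.4 and 32.0% over the groups, with a wide spread described with the polyps. The window thus held sites near 50%, sites near 0 and sites between them.

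The library mean over the 5 Gnas sites near 50% in the cluster ran from 0.216 to 63.6% in the 43 libraries with a median of 45.7%, and 33 of the 43 lay from 40 to 60%. Group means were 44.1% ± 3.30 (SD, n = 5) in 0ND, 42.1% ± 4.31 (n = 7) in 2ND and 45.5% ± 3.02 (n = 6) in 8ND of the first cohort. In the second cohort they were 44.5% ± 7.85 (n = 6) in 0ND, 40.4% ± 11.9 (n = 6) in 8ND, 45.1% ± 23.2 (n = 6) in 0P and 49.5% ± 5.20 (n = 7) in 8P. In second-cohort 8ND only 3 of the 5 sites had enough reads in mouse 1830 and 2 in mouse 1858. Sites differed in level, so these 2 library means do not compare like for like with the others. Without mouse 1830 the second-cohort 8ND mean was 43.9% ± 9.09 (n = 5), and without mouse 1805 the 0P mean was 54.1% ± 8.38 (n = 5). The level depended on the adjustment. Raw group means were 26.5 to 27.2% in the first cohort and 34.9 to 44.1% in the second, with a median over all libraries of 34.99%, and 16 of 43 libraries lay from 40 to 60% before the adjustment.

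**Figure D3:**
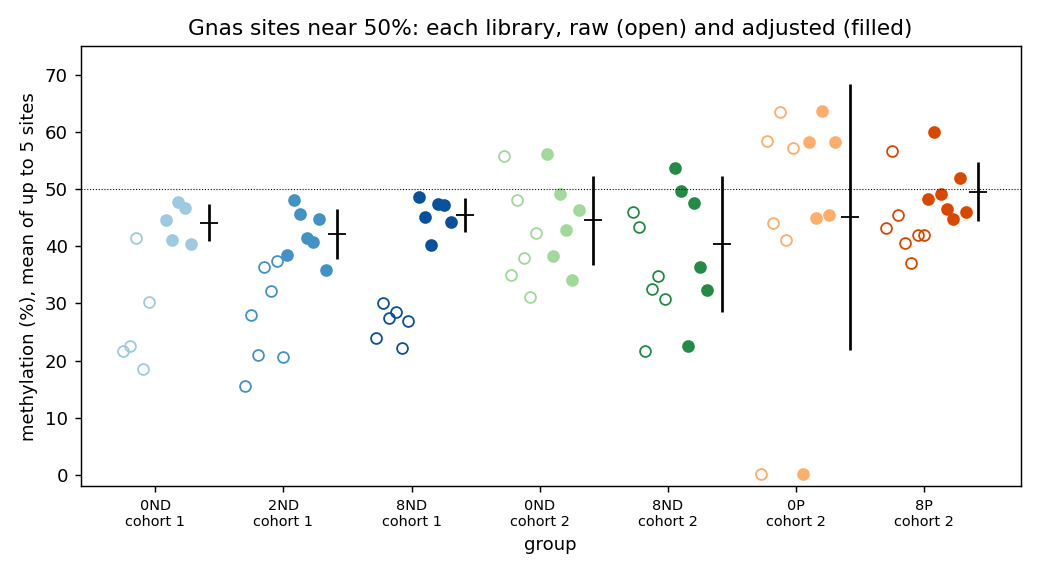
Mean methylation (y axis, %) over up to 5 Gnas sites near 50% in each of the 43 libraries, by group (x axis), raw (open circles) and adjusted (filled circles), with the mean and SD of the adjusted values in black. The adjusted group means lie between 40.4 and 49.5%, and 1 lesion of 0P is at 0.216%.

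In the H19 window no site was near 50%. A pair 231 bases apart, positions 149816664 and 149816895 on chromosome 7, averaged 23.6 and 30.4% over the groups. In 39 libraries the pair differed by a median of 5.40 points and the second site was higher in 32, with a median read ratio of 1.02. At 149816664 the means were 22.9% ± 4.95 (SD, n = 5) in 0ND, 25.9% ± 4.04 (n = 7) in 2ND and 30.8% ± 13.5 (n = 6) in 8ND of the first cohort. In the second they were 28.9% ± 18.4 (n = 6) in 0ND, 21.6% ± 9.60 (n = 4) in 8ND, 16.6% ± 15.4 (n = 6) in 0P and 18.6% ± 6.98 (n = 7) in 8P. The deepest H19 pair, 149846352 and 149846492, was almost unmethylated, with 87 of 24289 reads (0.358%) and 6 of 24379 reads (0.0246%) methylated over all 43 libraries, of which 42 had at least 20 reads.

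In the Grb10 window 2 sites 316 bases apart were methylated, position 11928198 at 69.2% and position 11928514 at 86.3% over the groups, and the second was higher in 30 of 31 libraries. The other 5 sites of the window averaged from 0 to 5.08%. At 11937846, 38 of the other 42 libraries read no more than the 13.6% of the 0P lesion of mouse 1805, and the highest library read 39.8%. The Grb10 sites thus fell into a methylated pair and a set near 0, with none between.

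**Figure D4:**
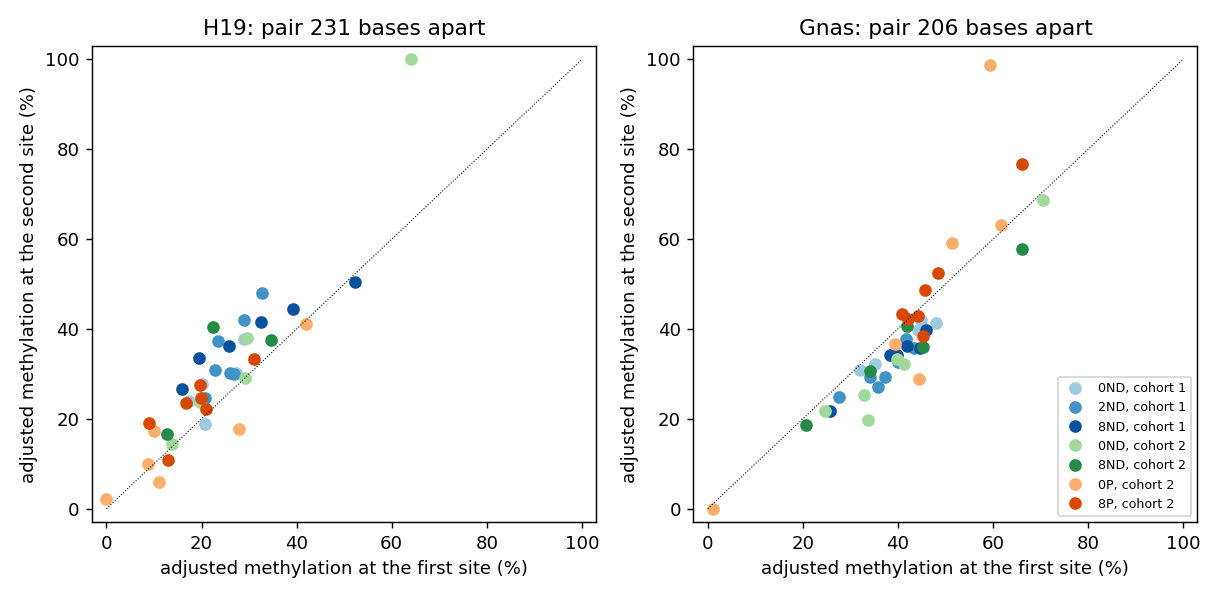
Adjusted methylation (%) at the second site (y axis) against the first site (x axis) of a pair in H19 (231 bases apart, 39 libraries) and in Gnas (206 bases apart, 42 libraries), 1 point per library with at least 20 reads at both and colours for the 7 groups. In each window the pair with the highest Pearson r among the well-read neighbouring pairs was drawn, so closeness to the dotted line of equal levels was a ground of the choice. Other pairs were looser, such as Gnas 174125155 and 174125553 (r = 0.381 over 42 libraries). The second H19 site was higher in 32 of 39 libraries.

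The sites of Plagl1, Igf2r and Kcnq1ot1 had few reads and levels that differed widely between libraries. Plagl1 position 12800739 averaged 62.6% over the groups from 9 libraries with 20 to 46 reads, of which 5 were at exactly 0 or 100%. In 8P it read 0, 44.6, 54.2, 64.4, 88.1 and 100%, and in 0P it read 0, 100 and 100%. Of the 9 libraries, 3 lay from 35 to 65%. Igf2r position 12962072 had enough reads in 8P only, where it read 52.1, 65 and 67.2%, while 1 library of 0P read 0% (22 reads). Kcnq1ot1 position 150472720 read 0, 0, 0, 25.7 and 64.0% in 8P, and position 150481348 read 55.8, 59.7, 73.6 and 78.7% there, each at 20 to 46 reads. Outside 8P, 150472720 read 0% in 1 library of 0ND (21 reads) and 3.31% in 1 of 0P (30 reads). At 150481348, 1 library of 8ND read 0% (20 reads) and 1 of 0P read 100% (23 reads).

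Whether FA changed these sites in epithelium was asked first in the first cohort. A site was called where the difference between group means exceeded 5 points and the unadjusted p of limma's moderated test was under 0.05. Between 8ND and 0ND, 2 of 22 sites were called, beside 5.31% of the 19614 sites tested in the genome, and none after Benjamini-Hochberg adjustment (smallest adjusted p 0.747, limma). H19 position 149816895 read 18.9, 24.0, 27.7, 30.2 and 37.9% in 0ND and 26.7, 33.5, 36.2, 41.6, 44.5 and 50.4% in 8ND. The groups overlapped, and the mean was 11.1 points higher in 8ND (38.8 against 27.8%, SE 4.64, limma adjusted p = 0.747). Grb10 position 11928514 read 87.2, 87.5, 90.5 and 95.6% in 0ND and 72.7, 81.7, 84.7, 86.4 and 86.5% in 8ND. Here the groups did not overlap among libraries with at least 20 reads. The mean was lower in 8ND (82.4 against 90.2%, difference -7.78 points, SE 3.26, limma adjusted p = 0.785). The 0ND library left out, at 19 reads, read 81.6%, within the 8ND range. The 8ND library left out, at 11 reads, read 78.1%. The lack of overlap thus depended on the read minimum, and how often it occurs among all sites was not tested. The H19 call was lost on leaving out any 1 of 7 of the 11 libraries (those at 41.6, 44.5 and 50.4% in 8ND and at 18.9, 24.0, 27.7 and 30.2% in 0ND), with differences of 8.77 to 11.7 points in those 7. The Grb10 call was lost on leaving out any 1 of 6 (those at 81.7 and 84.7% in 8ND and all 4 of 0ND), with differences of -8.78 to -5.98 points in those 6. Neither was called with raw percentages, and with at least 50 reads the 1 call was Gnas 174125155. The median difference over the 22 sites was 0, as it was over all sites tested.

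At 2 mg FA, none of 25 sites was called by limma against 0ND, beside 4.93% of 21540 sites, and none had an unadjusted p under 0.05. A quasi-binomial logistic model called 2. At H19 149816895 the mean was 34.8% in 2ND and 27.8% in 0ND (difference 7.00 points, SE 4.42). The mean over the sites near 50% of all windows differed by 1.44 points between 8ND and 0ND (exact permutation p = 0.446) and by -2.16 points between 2ND and 0ND (exact permutation p = 0.456), both two-sided and smaller than the SD between libraries of a group (3.02 to 5.14 points).

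In the second cohort, none of 20 sites was called between 8ND and 0ND by limma, beside 2.01% of 17912 sites, and none had an unadjusted p under 0.05. The sites near 50%, again all in Gnas, differed by -3.54 points (two-sided exact permutation p = 0.604), and by 0.864 points without the library of mouse 1830. At H19 149816895 the means were 31.5% ± 13.0 (SD, n = 3) in 8ND and 41.0% ± 34.1 (n = 5) in 0ND, where mouse 1808 read 100% (27 reads). The difference at this site was -9.50 points (SE 20.0, limma adjusted p = 1), and whether it differed from that of the first cohort was not tested. Grb10 11928514 had enough reads in too few libraries of 8ND to be tested.

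Polyps on 8 mg FA were then compared with epithelium on the same diet. In 8P the 5 Gnas sites read 44.8 to 60.01% in the 7 lesions, and in 8ND the sites with enough reads averaged 22.6 to 53.7% in the 6 libraries. These were only 3 of the 5 sites in mouse 1830 (22.6%) and 2 in mouse 1858 (32.4%). Over the sites near 50% of all windows 8P was 8.35 points higher (two-sided exact permutation p = 0.122, adjusted for the 6 comparisons 0.704), which fell to 4.52 points (p = 0.236, exact) without the 8ND library of mouse 1830 and rose to 10.7 points (p = 0.0404, exact) without that of mouse 1856. Mouse by mouse, the polyp was higher in 4 of 6 mice, by 4.15 to 34.8 points, and lower in the others, by -7.63 and -3.89 points. Plagl1 12800739, Igf2r 12962072 and Gnas 174110635 had enough reads in no second-cohort epithelium library and entered the polyp values only. The polyp and epithelium values are thus not all of the same sites. In mouse 1800 (-7.63 points) the 5 Gnas sites read 48.3% in the polyp and 49.6% in epithelium. The mean distance from 50% of the sites near 50% of all windows was 11.4 points ± 1.06 (SD, n = 7) in 8P and 15.6 ± 8.26 (n = 6) in 8ND (exact permutation p = 0.220), with a median of 230 reads per site in 8P and 78.8 in 8ND. This distance is a plain mean over the sites with enough reads in a library. In 8ND these were Gnas sites only, while 8P values include Plagl1 and Igf2r sites where read, so the groups were measured at unlike sites. Without the 8ND library of mouse 1830 the 8ND mean was 13.3 ± 6.62 (n = 5), and the difference of -4.27 points became -1.92 (exact permutation p = 0.497).

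Of 20 sites tested between 8P and 8ND 1 was called, beside 5.88% of 19606 sites, and none after adjustment (smallest adjusted p 0.472, limma). It was Gnas position 174153899, which lies next to the unmethylated end of the window. It read 21.5, 40.9, 49.6, 52.9, 63.0 and 69.1% in 6 lesions of 8P and 0, 0, 34.2 and 35.1% in 4 libraries of 8ND, at 21 to 74 reads. The groups overlapped, and the mean was 32.2 points higher in 8P (49.5 against 17.3%, SE 11.3, limma adjusted p = 0.472). The call was lost without the 8ND library of mouse 1830 or of mouse 1848 (26.4 points each). With the mouse as a block 2 sites were called, this one and H19 149816895, whose unblocked means were 23.0% in 8P and 31.5% in 8ND (difference -8.53 points, SE 6.04). The neighbouring site 174154841 read 21.4 to 75.9% in 7 lesions of 8P, and of the 8ND libraries of the second cohort only 1 had enough reads there, that of mouse 1856, at 0%. On 0 mg FA this site read 24.4 to 62.1% in 3 second-cohort libraries of 0ND and 3.44% in 1 lesion of 0P.

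Polyps without FA were compared with epithelium without FA in the same way. The SD of the Gnas level was 23.2 points in 0P, 8.38 without the lesion of mouse 1805, and 7.85 in 0ND of the second cohort. These SDs were not compared by a test. In 0P the 5 Gnas sites read 0.216, 44.96, 45.5, 58.2, 58.2 and 63.6%, and in 0ND of the second cohort they read 34.2, 38.3, 42.9, 46.4, 49.1 and 56.2%. The difference over the sites near 50% was 0.956 points (two-sided exact permutation p = 0.922), and it was 8.94 points (p = 0.0952, exact) without the lesion of mouse 1805. The mean distance from 50% was 22.3 points ± 15.2 (SD, n = 6) in 0P and 16.2 ± 6.05 (n = 6) in 0ND (exact permutation p = 0.439), and the difference of 6.18 points fell to 0.688 points without that lesion. Here too the 0ND distances rest on Gnas sites alone, while those of 0P include the Plagl1 and Igf2r sites where read. None of 22 sites was called by limma, beside 5.62% of 18548 sites, and none had an unadjusted p under 0.05. Without the lesion of mouse 1805, 1 was called, Grb10 11936776.

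In the lesion of mouse 1805 all 7 sites of the Gnas cluster with enough reads were at or near 0, with 2 methylated of 596 reads. Each of the 7 was lower than in every other library with enough reads at that site, 28 to 42 libraries a site. At 174125553, the deepest, 2 of 192 reads were methylated, and at 174125759 0 of 134, which allows a level of up to 2.24%. The epithelium of the same mouse read 92.5% at 174124966 (26 reads) and 21.7% at 174125759 (108 reads). The H19 pair was also low in the lesion, with 0 and 2 methylated of 92 reads each, below the 40 and 38 other libraries. Grb10 11928198 read 15.3% (74 reads), below all 30 others, while its neighbour 11928514 read 100% (56 reads). Igf2r 12962654 (73 reads), Plagl1 12800739 (34 reads) and Plagl1 12822199 (55 reads) read 100%. Levels at both ends of the scale were thus found in this lesion at the imprinted sites, as at the genome's sites near 50%, and no cause of this was tested.

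Between polyps on 8 and 0 mg FA, 1 of 28 sites was called by limma, beside 3.86% of 29118 sites, and none after adjustment (smallest adjusted p 0.859, limma). It was Igf2r position 12962654, which read 30.6, 38.0, 44.6, 46.6, 51.1, 72.7 and 73.8% in 8P and 49.8, 95.2 and 100% in 0P. The groups overlapped, and the mean was lower in 8P (51.0 against 81.6%, difference -30.6 points, SE 13.2, limma adjusted p = 0.859). The 100% was the lesion of mouse 1805, without which only 2 libraries of 0P were left and the site was not tested. The call was also lost without any of the 8P lesions 1800, 1830, 1848 or 1858, or the lesion of mouse 1856 at 51.1% (-30.6 to -27.2 points). At Grb10 11937005 the unadjusted p was also under 0.05, but the means differed by 2.17 points, and it was not called. The sites near 50% differed by 5.82 points (two-sided exact permutation p = 0.470), by 0.762 points without the lesion of mouse 1805 and by 9.52 points (p = 0.0480, exact) without that of mouse 1809. The comparisons of 8P share their 7 lesions, and those of 0P their 6, so they are not independent of each other.

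Whether the polyp change differed with diet was tested over mice. The polyp minus epithelium difference at the sites near 50% averaged 9.12 points ± 15.4 (SD, 6 mice) on 8 mg FA and -0.434 ± 22.0 (SD, 6 mice) on 0 mg FA. The difference of 9.56 points was smaller than either SD (two-sided exact permutation p = 0.446), and it was 1.90 points without the 0P lesion of mouse 1805 and 4.56 points without the 8ND library of mouse 1830. On 0 mg FA the polyp was higher in 4 of 6 mice, by 2.11 to 20.7 points, and lower by -41.9 points in mouse 1805 and -4.10 in mouse 1808. Plagl1 12800739, Igf2r 12962072 and Gnas 174110635 entered the polyp values only, so these changes do not compare the same sites throughout.

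By window, 7 comparisons of the sites near 50% were possible, 6 in Gnas and 1 in Plagl1. Those between epithelium groups repeat the values given above, since all their sites lay in Gnas. In Gnas the largest difference was 8.74 points between 8P and 8ND (exact permutation p = 0.107, adjusted 0.746 over the 7), and 4.68 points without the 8ND library of mouse 1830. The adjusted p was 0.963 in the other 6. Without the lesion of mouse 1805 the Gnas difference between 0P and 0ND went from 0.609 to 9.72 points (exact permutation p = 0.0758), and that between 8P and 0P from 5.49 to -3.01 points (exact permutation p = 0.476). Over all 6 comparisons, 4 of 137 site tests were called (2.92%), beside 4.58% of all site tests in the genome. The share called at the imprinted sites lay near or below that of all sites and is no result about imprinted sites.

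The spread between libraries sets what could be seen. At the 5 Gnas sites the SD within groups, pooled over the 7 groups, was 12.7 to 16.6 points, and the median over the genome's 1068 sites near 50% was 14.3. The groups differed in spread. At 174125155 their SDs ran from 3.21 points in first-cohort 0ND to 23.1 in 0P, which holds the lesion of mouse 1805. The pooled SD was 2.78 to 3.99 times the SD that read counting alone gives (median 3.04 in the genome). The counting SD took no account of the adjustment of the percentages. In the 8 mice with epithelium in both cohorts the Gnas level differed between the 2 libraries of a mouse by 1.81 to 26.0 points, with a median of 6.38, and was higher in the second cohort in 3 of the 8. The widest gap was in mouse 1830, at 48.6% in the first cohort and 22.6% in the second, where only 3 of the 5 sites had enough reads. Mouse 1858 had 2 of the 5 in the second cohort, so the gaps of these mice are not over the same sites. Differences between group means at the Gnas sites near 50% ranged from 0.609 to 8.74 points in size with all libraries.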

How the data were processed

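DREAM libraries of 43 microdissected samples were used, grouped by the diet, tissue, cohort and mouse number of the labels. The authors mapped the reads (Bowtie2 and SAMtools in the submitters' processing notes, versions not given in the sources used here) and deposited counts of methylated, unmethylated and all reads at 173449 CCCGGG sites (mm9) and at 18 spiked standards. The deposited percent values are the raw methylated share and a share the authors adjusted with the standards. In the methods the genome used for mapping is the human one, although positions are of mm9.

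From these files, sites with at least 20 reads in at least 3 libraries of a group were kept, and libraries under 20 reads at a site were treated as missing there, except in reads pooled over libraries at sites near 0. Adjusted percentages were compared over all such sites of the genome with limma 3.58.1 (R 4.3.3, eBayes with trend) and Benjamini-Hochberg adjustment. For library means over sites near 50%, exact permutation tests (two-sided) were used (Python 3.11.15, numpy 2.4.6, scipy 1.17.1, pandas 2.3.3). Such a mean took the sites with at least 20 reads in the library, so libraries could differ in the sites averaged. For differences between groups each site was first centred on its mean over the libraries compared. Distances from 50% and the Gnas levels were not centred. Figures were drawn with matplotlib 3.10.9. All 10 windows are named, with per-group values for up to 3 sites near 50% per window with the most reads and up to 5 called sites per comparison. Other values, such as those of the lesion of mouse 1805 and the shares at the ends of the scale, were chosen after the data were seen. Members, windows and tests were chosen with earlier results of these data known.

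Mouse numbers pair polyps with epithelium of the same animal. Deviations from group means of the same mouse correlated by 0.0747 on average on 8 mg FA and 0.0297 on 0 mg FA. No 2 libraries had equal reads at more than 2.09% of sites, so none was counted as a repeat. P-values measure the spread between libraries of different mice, except that mouse 1856 gave 2 lesions and that polyps and second-cohort epithelium of a diet came from the same 6 mice. The main tests of polyps against epithelium took these libraries as unpaired. Tests with the mouse as a block are among the alternatives. The test was tested on simulated data for 8P against 0P (29118 sites), as a check of the script.

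The Gnas differences without the libraries of mice 1805 (0P) and 1830 (8ND) were added after the data were seen. Other alternatives were read minimums of 10 and 50, raw percentages, centring of each library, at least 20 reads in every library, a plain two-group test, a quasi-binomial logistic model, bands of 40 to 60% and 30 to 70%, only libraries in which the 100 most-read sites took under 8% of reads, or standards under 30%, averaged lesions of mouse 1856, mouse blocks and leaving out each library.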

Additional observations from a re-analysis of the deposited data

Results flagged for a closer look

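Within groups of 4 to 10 libraries, a value was singled out when its gap to the nearest other value took up more of the group's range than Dixon's 95% limit allows. Chance singles out about 1 in 20 sets, or 3.35 of the 67 sets examined, and 13 were singled out. They came from 4 mice and are not independent, since neighbouring sites share fragments.

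The 0P lesion of mouse 1805 was low for the mean over the Gnas sites near 50% (0.216%, next lesion 44.96%), at Gnas 174124966 (0%, 33 reads) and at Gnas 174125553 (1.08%, 192 reads). Its epithelium of the second cohort was high at Gnas 174124966 (92.5%, 26 reads) and Gnas 174125155 (88.8%, 35 reads), and lay farthest from 50% on average (27.6 points, next 16.9). The second-cohort 0ND library of mouse 1808 was high at Gnas 174125553 (70.6%), Gnas 174125759 (68.6%) and H19 149816895 (100%, 27 reads). The 8P lesion of mouse 1830 was high at Gnas 174125553 (66.1%) and Gnas 174125759 (76.6%, 46 reads). The first-cohort 8ND library with the fewest reads at these sites, a mean of 36.6 per Gnas site, was low at Gnas 174125759 (21.7%) and lay 21.2 points from 50% (next 11.5).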

How the results depend on the processing

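Counts of called sites were small and depended on the processing. In the first cohort, 8ND against 0ND, 2 sites were called, 3 with a quasi-binomial logistic model (H19 149816664 and 149816895, Gnas 174125155), and 1 with at least 10 reads, with at least 50 (Gnas 174125155, neither of the 2), with each library centred, with at least 20 reads in every library or with a plain two-group test, and 0 with raw percentages or Benjamini-Hochberg adjustment. Between 2ND and 0ND the count was 0, and 2 with a quasi-binomial logistic model. Between 8P and 8ND it was 1 (with at least 10 reads another site, Grb10 11928198), and 0 with at least 50 reads, with 20 reads in every library, with the quasi-binomial model, with only libraries whose 100 most-read sites took under 8% of reads or with adjustment, and 2 with libraries under 30% of reads on standards or with the mouse as a replicate block. Between 0P and 0ND it was 0, and 1 with at least 10 reads (again Grb10 11928198), with at least 50 (Gnas 174124966), with centring or with the quasi-binomial model (Grb10 11936776 in each). Between 8P and 0P it was 1, and 0 with at least 10 reads, with 20 reads in every library, with the plain test, with the quasi-binomial model or with adjustment, and 2 with at least 50 reads (Gnas 174124966 and H19 149816895). Leaving out 1 library gave 0 to 2, 0 to 1, 0 to 3, 0 to 1 and 0 to 2 calls in these 5 comparisons.

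For the sites near 50%, raw percentages turned the first-cohort differences, all from Gnas sites, to -0.0718 points (8ND) and 0.433 points (2ND). A band of 30 to 70% turned the 2ND difference to 0.311. With the same limit of 8% on the 100 most-read sites, 8ND minus 0ND of the second cohort became 7.76 points, 8P minus 8ND became -0.674 points and the distance from 50% became 2.62 points higher in 8P (exact permutation p = 0.0333). That limit kept the second-cohort 8ND libraries of mice 1800, 1841 and 1856, and the limit on standards kept those of 1830, 1848 and 1858. With libraries under 30% of reads on standards, 8P minus 8ND became 18.2 points and its distance from 50% -10.9 points (each exact permutation p = 0.0119). This p is the smallest that the test can give with 6 lesions and 3 libraries. No value without mouse 1830 was computed under the limit on standards. With at least 50 reads the difference in distance from 50% was -6.30 points (exact permutation p = 0.0396). 0P minus 0ND became -3.03 points with a band of 40 to 60% and -3.48 with 30 to 70% (Gnas alone -1.70), and Gnas in 8P minus 8ND became 8.86 points (exact permutation p = 0.0420) with the latter band. Leaving out 1 library gave -5.82 to 0.864 points for 8ND against 0ND in the second cohort, 4.52 to 10.7 for 8P against 8ND, -2.94 to 8.94 for 0P against 0ND and 0.762 to 9.52 for 8P against 0P. The 8ND minus 0ND difference of the second cohort, all from Gnas sites, was 0.864 points without mouse 1830. For Gnas alone, 8P minus 0P was -3.01 points without mouse 1805. The causes were not tested. With the mouse as a replicate block, 8P minus 8ND was 8.32 points (sign flips, exact p = 0.250), and apart from the count given above the pairing changed no call. The restriction on standards left no 0P library and gave no value there. The limits are groups of 5 to 7 libraries, few sites near 50% outside Gnas, and the adjustment, which raised the Gnas level most in the first cohort.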
